A study of Mus musculus with 6 samples.

Results

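Transcripts of amino acid transporters and of the enzymes that make glutamine, asparagine and arginine were measured in CD11b+ cells purified from subcutaneous lung tumors of mice in an MCT2 CO and an MCT2 KO group. The set holds 9 genes chosen by symbol, namely *Slc7a2*, *Slc7a7*, *Slc7a11*, *Slc3a2*, *Slc7a5*, *Slc1a5*, *Glul*, *Asns* and *Ass1*. All 9 were present among the 25701 genes of the count table, and all 9 were among the 13485 genes that passed the filter on low counts and were tested. The rule that lists them names genes and uses no measured value, but the genes were chosen with earlier results of these data known.

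The mice carried loxP sites on both copies of *Slc16a7*, which encodes the monocarboxylate transporter MCT2, together with an mCre transgene, on a C57BL/6 background. MCT2 KO mice received tamoxifen at 8 weeks of age and MCT2 CO mice of the same genotype received vehicle, so effects of tamoxifen or of active Cre and effects of the deletion cannot be told apart. TC1 cells, a mouse lung epithelial tumor line that was not itself deleted for MCT2, were injected into the flank 2 days later, and tumors were taken after 24 days. There were 3 samples per group, and CD11b+ cells were selected with magnetic beads from each tumor suspension. The labels name lung as the tissue and purified macrophage as the cell type, whereas the described design places the tumors in the flank. The promoter driving Cre is not given in the sources used here, and the deletion was not limited to CD11b+ cells. The labels number the samples as replicates without tying each to an animal. The p-values set the difference between groups against the spread between these samples.

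Macrophages take up amino acids through carriers that differ in the substrates they accept. Several of these carriers are light chains of the Slc7 family that reach the cell surface only when joined to the heavy chain Slc3a2 (CD98). Arginine imported by macrophages feeds nitric oxide synthase or arginase, cystine imported through Slc7a11 feeds glutathione synthesis, and glutamine made by Glul is a feature often described in alternatively activated macrophages. When amino acids run short, the transcription factor ATF4 raises the transcription of *Asns*, *Slc7a11* and many other transporter and synthetase genes through C/EBP-ATF response elements.

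Promoter sequence is shown for the members whose windows held the core of that element, because the members were compared below with other genes of the amino acid response. RefSeq windows on GRCm38.p6, from 250 bases before to 50 bases after an annotated start, were matched for 6 of the 9 members, 10 windows in all. *Slc7a2*, *Slc7a5* and *Slc1a5* were not matched. Each window was searched on both strands for TGATGNAA, the core of the C/EBP-ATF response element, and for TGACNNNGC, the core of the antioxidant response element. The capitals mark TGATGNAA on either strand, and each sequence runs 5′ to 3′ on the gene's own strand, which is the minus strand for the 3 genes shown. The windows are chr3:50443564-50443863 for *Slc7a11*, chr6:7693160-7693459 for *Asns* and chr14:54417895-54418194 for *Slc7a7*.
Slc7a11: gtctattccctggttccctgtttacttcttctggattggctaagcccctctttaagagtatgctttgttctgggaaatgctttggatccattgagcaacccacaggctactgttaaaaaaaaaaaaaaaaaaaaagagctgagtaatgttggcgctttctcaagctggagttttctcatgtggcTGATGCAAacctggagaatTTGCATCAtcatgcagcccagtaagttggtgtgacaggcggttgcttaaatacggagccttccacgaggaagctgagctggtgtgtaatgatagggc
Asns: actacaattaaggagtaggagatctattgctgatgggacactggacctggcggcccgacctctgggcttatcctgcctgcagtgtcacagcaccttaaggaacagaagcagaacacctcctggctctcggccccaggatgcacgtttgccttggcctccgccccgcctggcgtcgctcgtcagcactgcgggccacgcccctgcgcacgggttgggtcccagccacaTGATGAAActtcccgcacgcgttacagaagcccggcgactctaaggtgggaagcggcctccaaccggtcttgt
Slc7a7: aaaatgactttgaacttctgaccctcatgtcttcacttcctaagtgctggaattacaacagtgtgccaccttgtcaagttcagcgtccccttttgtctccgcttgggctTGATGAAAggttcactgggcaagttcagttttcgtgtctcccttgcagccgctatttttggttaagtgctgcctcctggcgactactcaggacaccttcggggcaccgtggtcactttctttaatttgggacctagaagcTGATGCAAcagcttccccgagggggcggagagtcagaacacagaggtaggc

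The *Slc7a11* window held 2 copies of TGATGNAA, from 66 to 59 and from 47 to 40 bases before the start, the second on the opposite strand. The *Asns* window held 1 copy from 23 to 16 bases before the start. The *Slc7a7* window held 2 copies, the first from 141 to 134 bases before the start and the other across the start itself. That window belongs to the outermost of 5 RefSeq starts of *Slc7a7*, and the copy across the start also lay in the window of the next start. At least 1 copy was present in 3.97% of 32817 RefSeq windows, and 2 or more were present in 0.0701% of them. No copy was found in the windows of *Slc3a2*, *Glul* or *Ass1*. The letters TGACNNNGC were found in the *Asns* window, from 172 to 164 bases before the start and apart from the TGATGNAA match, in none of the other member windows, and in 12.4% of all windows. These matches describe letters in the sequence and are not evidence of binding.

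Total counts ranged from 24863611 to 31713704 per sample. Of the samples, MCT2 CO replicate 3 and MCT2 KO replicate 2 stood apart on the first 2 principal components, which held 39.66% and 33.16% of the variance of the 500 most variable genes, and results of the 9 genes that rest on them are also given without them. *Slc16a7*, the targeted gene, had 481, 287 and 298 counts in the CO samples and 196, 162 and 133 in the KO samples, with no overlap. Its log2 fold change, KO minus CO as throughout, was -1.05 (SE 0.24), with an adjusted p of 0.370 by the edgeR quasi-likelihood test after Benjamini-Hochberg adjustment and 0.00908 by DESeq2. The DESeq2 adjusted p for *Slc16a7* was 0.0731 without KO replicate 2 (log2 fold change -0.91), 0.0401 without CO replicate 3 and 0.0567 without both. Levels are given as CPM, counts scaled to the TMM-normalized library total of each sample. The macrophage markers *Cd68*, *Adgre1* and *Csf1r* were read in all 6 samples at 203.3 to 1408.0 CPM. *Itgam*, which encodes CD11b, had 1 count in all 6 samples, and 99.1% of its exon bases lie inside the span of another annotated gene, so it could not serve as a check. A gene was called at an adjusted p of 0.05 or less with a log2 fold change of at least 0.58 in size.

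By edgeR's quasi-likelihood test none of the 9 members was called, against 0% of all 13485 genes. DESeq2 called 1 member, *Slc7a2*, higher in MCT2 KO, and it called 0.584% of the 14202 genes it gave an adjusted p, or 0.586% of the filtered genes. The 3 members *Slc7a2*, *Slc7a11* and *Glul* had all KO samples above all CO samples, as did 7.07% of all genes. Gaps of either direction were present in 15.8% of genes. The same 3 members had an unadjusted edgeR p under 0.05, where 9.37% of all genes did. All 3 were higher in KO, where 3.77% of genes were below that p and higher and 5.6% below it and lower. A log2 fold change of 0.58 or more was reached by 1 member, *Slc7a2*, and by 1.96% of genes, or 5.84% in either direction. No member had all KO samples below all CO samples, where 8.77% of genes did. The median log2 fold change of the 9 members was 0.15, beside 0.00037 over all genes tested. Leaving out single samples moved the members' median between 0.094 (without KO replicate 1) and 0.27 (without KO replicate 2), with 0.096 without CO replicate 2, and it was 0.099 without CO replicate 3 and KO replicate 2 together. There were 6 members higher and 3 lower in KO, and 50.1% of all genes were higher. In bulk samples such as these, fewer cells of a type and less RNA per cell cannot be told apart.

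**Figure D1:**
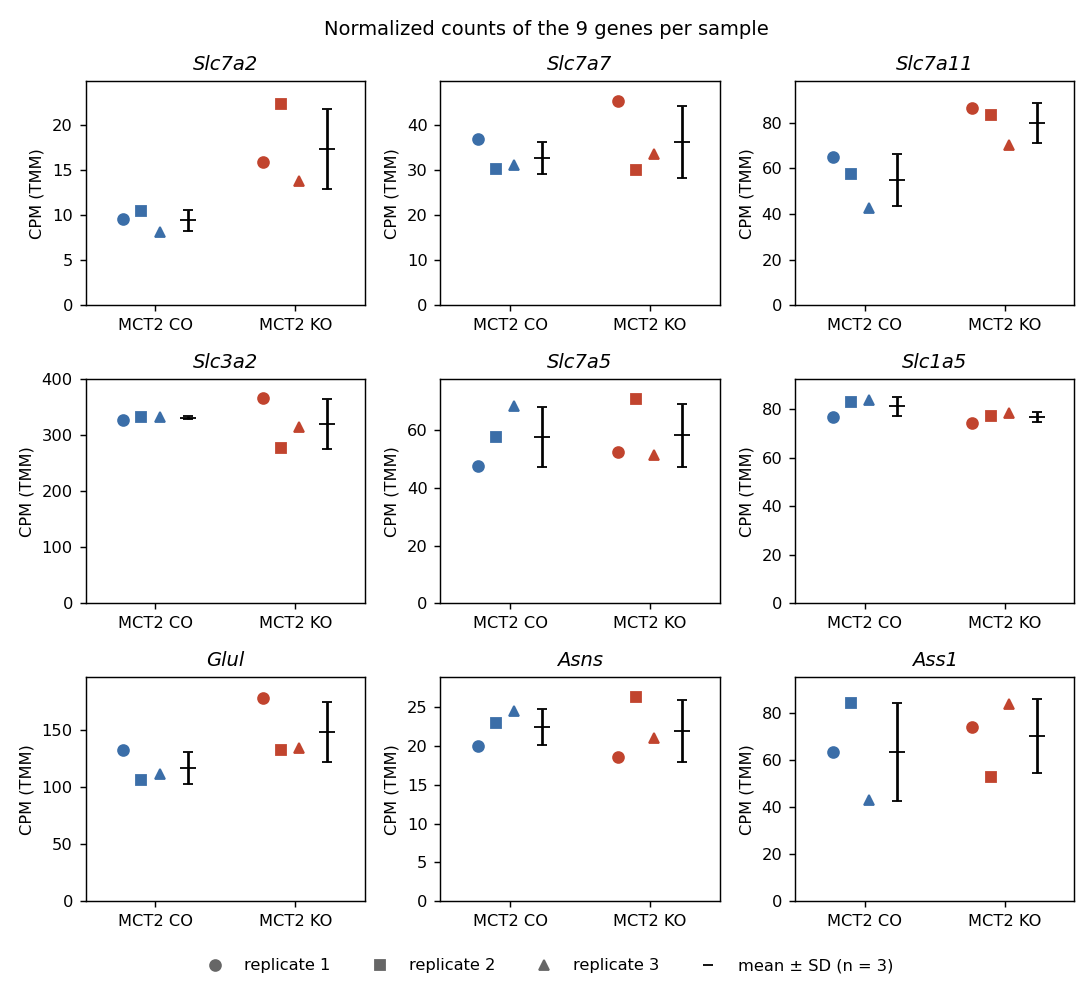
Normalized counts of the 9 genes, with CPM after TMM scaling on each vertical axis and the MCT2 CO (blue) and MCT2 KO (red) groups on the horizontal axis. Points are samples, shaped by replicate number, and bars are the mean ± SD of 3 samples. All KO points lie above all CO points for *Slc7a2*, *Slc7a11* and *Glul*, with a gap of 0.0941 CPM for *Glul*, and the groups overlap for the other 6 genes.

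*Slc7a2* (ENSMUSG00000031596, chromosome 8, 40862396 to 40922308, plus strand, in GENCODE M21 on GRCm38) encodes the cationic amino acid transporter CAT2, which brings arginine, lysine and ornithine into the cell. It was read at 9.61, 10.5 and 8.17 CPM in the CO samples and at 15.9, 22.3 and 13.8 CPM in the KO samples. The KO samples all lay above the CO samples, by at least 3.32 CPM, and KO replicate 2 was the highest. The means were 9.42 ± 1.18 CPM in CO and 17.3 ± 4.44 CPM in KO (SD, n = 3), a 1.84-fold difference in the edgeR fit. The log2 fold change was 0.88 (SE 0.19), with a 95% interval of 0.41 to 1.35 in limma-voom, and it was the 103rd highest of 13485. The adjusted p was 0.370 by the edgeR quasi-likelihood test after Benjamini-Hochberg adjustment and 0.00957 by DESeq2. The DESeq2 call was lost when KO replicate 2 was left out (log2 fold change 0.66, DESeq2 adjusted p = 0.0610), when CO replicate 3 was left out (0.80, DESeq2 adjusted p = 0.164) and when both were left out (0.56, DESeq2 adjusted p = 0.298).

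*Slc7a7* (ENSMUSG00000000958, chromosome 14, 54369442 to 54417780, minus strand) encodes y+LAT1, a light chain that moves cationic amino acids outward in exchange for neutral amino acids. It was read at 36.8, 30.3 and 31.0 CPM in CO and at 45.2, 30.1 and 33.5 CPM in KO. The groups overlapped, since KO replicate 2 was the lowest of the 6 samples and KO replicate 1 the highest. Between groups the log2 fold change was 0.15 (SE 0.16, 95% interval -0.25 to 0.49, edgeR adjusted p = 0.800), and it was -0.034 without KO replicate 1. Of its exon bases, 7.0% lie inside the span of *Oxa1l*.

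*Slc7a1*, which encodes CAT1, the widely expressed carrier of the same cationic amino acids as Slc7a2, was read at 115.7 ± 7.28 CPM in CO and 107.8 ± 10.5 CPM in KO (SD, n = 3). The number of *Slc7a2* counts per *Slc7a1* count, a ratio within each sample that no scaling between samples can move, was 0.0882, 0.0851 and 0.0711 in CO. In KO it was 0.157, 0.186 and 0.135, above every CO sample. The log2 ratio differed by 0.96 between groups, with p = 0.1 in a two-sided exact permutation test, the smallest that 3 samples against 3 allow. Set against *Slc7a7* counts, *Slc7a2* counts came to 0.261, 0.346 and 0.263 in CO and 0.351, 0.743 and 0.412 in KO, again without overlap, a log2 difference of 0.72 (two-sided exact permutation test, p = 0.1). In all, 9 such ratios are covered here, and they were chosen after the values had been seen. Of these, 3 had p = 0.1 in the exact permutation test, the ratios of *Slc7a2* to *Slc7a1*, *Slc7a2* to *Slc7a7* and *Slc7a11* to *Slc3a2*, and the other 6 overlapped between groups.

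*Ass1* (ENSMUSG00000076441, chromosome 2, 31470207 to 31520672, plus strand) encodes argininosuccinate synthase, which rebuilds arginine from citrulline. Its levels were 63.1, 84.1 and 42.7 CPM in CO and 74.0, 52.7 and 83.5 CPM in KO. The spread within each group was wide, and the samples of both groups were interleaved. The log2 fold change was 0.15 (SE 0.25, 95% interval -0.42 to 0.76, edgeR adjusted p = 0.880), and it was -0.072 without CO replicate 3. Its ratio to *Asl*, the next enzyme of the same route, differed between groups by -0.051 on the log2 scale (two-sided exact permutation test, p = 0.7).

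*Slc7a11* (ENSMUSG00000027737, chromosome 3, 49892526 to 50443614, minus strand) encodes xCT, the light chain that exchanges glutamate inside the cell for cystine outside it. CO samples held 64.9, 57.8 and 42.6 CPM and KO samples held 86.3, 83.6 and 70.1 CPM. All KO samples lay above all CO samples, by at least 5.15 CPM, and CO replicate 3 was the lowest sample. The means were 55.1 ± 11.4 CPM and 80.0 ± 8.67 CPM (SD, n = 3), a 1.45-fold difference. Between groups the log2 fold change was 0.54 (SE 0.16, 95% interval 0.18 to 0.92), and the adjusted p was 0.429 by the edgeR quasi-likelihood test after Benjamini-Hochberg adjustment and 0.115 by DESeq2. It was 0.38 without CO replicate 3 and 0.35 without both CO replicate 3 and KO replicate 2.

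*Slc3a2* (ENSMUSG00000010095, chromosome 19, 8706882 to 8723369, minus strand) encodes CD98, the heavy chain shared by Slc7a5, Slc7a7 and Slc7a11. It was read at 327.8, 331.6 and 333.1 CPM in CO and at 366.0, 276.9 and 315.2 CPM in KO. The CO samples lay within a narrow range that fell inside the range of the KO samples. The log2 fold change was -0.05 (SE 0.11, 95% interval -0.31 to 0.20, edgeR adjusted p = 0.910), and it turned to 0.043 without KO replicate 2.

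The light chains were also set against this heavy chain within each sample. For each *Slc3a2* count there were 0.198, 0.174 and 0.128 *Slc7a11* counts in CO and 0.236, 0.302 and 0.222 in KO. All KO ratios were above all CO ratios, and the log2 ratio differed by 0.61 (two-sided exact permutation test, p = 0.1). The corresponding difference was 0.19 for *Slc7a7* (p = 0.3) and 0.071 for *Slc7a5* (p = 0.9) in the same exact permutation test, with overlapping groups for both. Whether the light chains differed from one another in these differences was not tested.

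**Figure D2:**
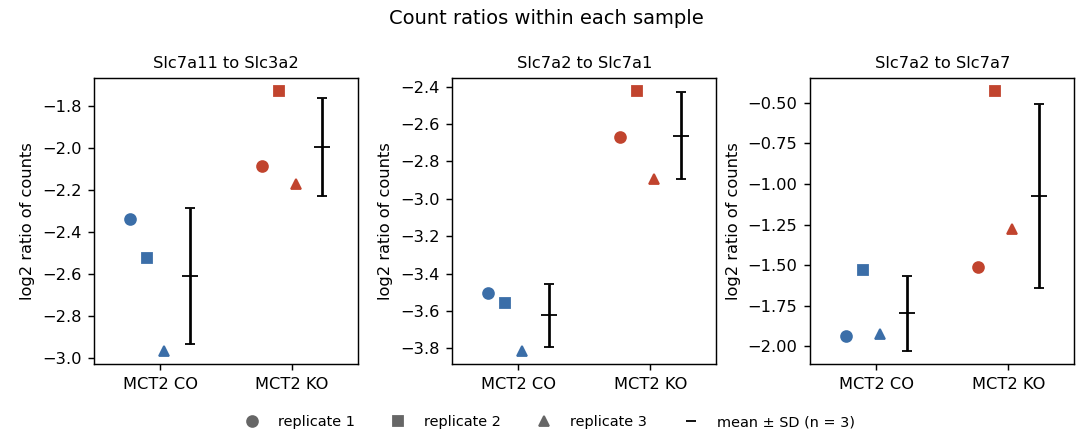
Count ratios within each sample, with the log2 ratio of 2 genes' counts on each vertical axis and the groups on the horizontal axis. Points are samples, shaped by replicate number, and bars are the mean ± SD of 3 samples. The KO samples lie above the CO samples for *Slc7a11* to *Slc3a2* (means -1.99 and -2.61), *Slc7a2* to *Slc7a1* (-2.66 and -3.62) and *Slc7a2* to *Slc7a7* (-1.07 and -1.80).

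*Slc7a5* (ENSMUSG00000040010, chromosome 8, 121881150 to 121907694, minus strand) encodes LAT1, which imports leucine and other large neutral amino acids. Its levels were 47.4, 57.4 and 68.1 CPM in CO and 52.3, 70.6 and 51.4 CPM in KO. The highest samples were KO replicate 2 and CO replicate 3, the samples that stood apart. Between groups the log2 fold change was 0.01 (SE 0.17, 95% interval -0.37 to 0.40, edgeR adjusted p = 0.987), and it ranged from -0.15 to 0.15 as single samples were left out.

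*Slc1a5* (ENSMUSG00000001918, chromosome 7, 16781340 to 16798274, plus strand) encodes ASCT2, a sodium-coupled importer of glutamine and other small neutral amino acids. CO samples held 76.9, 83.1 and 84.0 CPM and KO samples held 74.6, 77.2 and 78.7 CPM. The groups overlapped through CO replicate 1. The log2 fold change was -0.08 (SE 0.075, 95% interval -0.26 to 0.095, edgeR adjusted p = 0.762), and the SE was the smallest of the 9 members.

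*Glul* (ENSMUSG00000026473, chromosome 1, 153899944 to 153909723, plus strand) encodes glutamine synthetase, which joins glutamate and ammonia. It was read at 132.1, 106.5 and 111.2 CPM in CO and at 177.9, 132.2 and 134.2 CPM in KO. The groups did not overlap, but CO replicate 1 and KO replicate 2 were only 0.0941 CPM apart, and KO replicate 1 was far above the rest. The means were 116.6 ± 13.6 CPM and 148.1 ± 25.8 CPM (SD, n = 3), a 1.27-fold difference. Between groups the log2 fold change was 0.34 (SE 0.14, 95% interval 0.021 to 0.66), and the adjusted p was 0.513 by the edgeR quasi-likelihood test after Benjamini-Hochberg adjustment and 0.448 by DESeq2. It was 0.20 without KO replicate 1. Of its exon bases, 3.49% lie inside the span of *Teddm2*.

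*Asns* (ENSMUSG00000029752, chromosome 6, 7675169 to 7693254, minus strand) encodes asparagine synthetase, which uses glutamine as its nitrogen donor. Its levels were 19.95, 22.92 and 24.46 CPM in CO and 18.53, 26.28 and 20.97 CPM in KO. The groups overlapped, and the highest samples were again KO replicate 2 and CO replicate 3. The log2 fold change was -0.03 (SE 0.15, 95% interval -0.37 to 0.31, edgeR adjusted p = 0.961), and it ranged from -0.18 to 0.086 as single samples were left out.

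**Figure D3:**
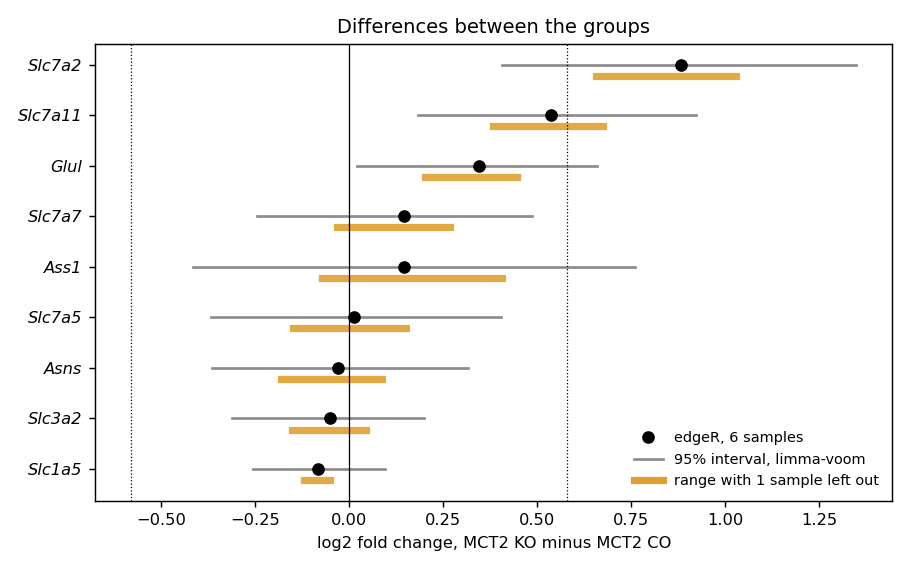
Differences between the groups for the 9 genes, with the log2 fold change of KO minus CO on the horizontal axis and a row for each gene. Points are edgeR estimates over 6 samples, grey lines are 95% intervals from limma-voom, orange bars span the estimates with 1 sample left out at a time, and dotted lines mark 0.58 in each direction. The intervals of *Slc7a2* (0.41 to 1.35), *Slc7a11* (0.18 to 0.92) and *Glul* (0.021 to 0.66) lie above 0, and those of the other 6 genes span 0.

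Levels can be set between genes only per length, so CPM was divided by the exon bases of each gene in kilobases. On that scale the order of the 9 members was the same in CO and in KO, and it was also the same when the length of the longest coding transcript was used. *Slc3a2* was the highest, at 93.7 ± 0.778 CPM per kilobase in CO and 90.5 ± 12.7 in KO (SD, n = 3). *Glul* followed at 35.1 ± 4.10 in CO and 44.6 ± 7.78 in KO, and *Ass1* at 26.2 ± 8.57 and 29.0 ± 6.53, with overlapping samples in CO and separate samples in KO. With the longest coding transcript as length, *Glul* (47.3 in KO replicate 2) and *Ass1* (49.2 in KO replicate 3) overlapped in KO as well.

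*Slc1a5*, at 19.5 ± 0.928 CPM per kilobase in CO and 18.4 ± 0.493 in KO, overlapped with *Ass1* in CO and with *Slc7a5* in KO. *Slc7a5* lay at 15.6 ± 2.79 in CO and 15.7 ± 2.93 in KO, and *Slc7a7* at 9.86 ± 1.07 and 10.9 ± 2.39. The samples of *Slc7a7* overlapped in KO with those of *Asns*, which lay at 8.21 ± 0.839 in CO and 8.02 ± 1.45 in KO. *Slc7a11*, at 3.96 ± 0.820 in CO and 5.75 ± 0.623 in KO, and *Slc7a2*, at 1.03 ± 0.129 and 1.90 ± 0.486, were below all of these without overlap. With the longest coding transcript as length, *Slc7a11* (9.36 in KO replicate 1) and *Asns* (9.19 in KO replicate 1) overlapped in KO. *Slc7a2* and *Slc7a11*, the members with the largest log2 fold changes, had the lowest means per length with either length. The authors' length column holds the whole span of each gene, so reads from introns may be included and levels of long genes such as *Slc7a11* per exon length may be too high.

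The members varied together in some cases across the 6 samples. On the log2 CPM scale *Slc7a5* and *Asns* had a Pearson r of 0.900, and 0.911 after the group means were removed. *Slc7a7* and *Glul* had an r of 0.877, and 0.974 within groups, with KO replicate 1 the highest sample for both. *Slc7a2* and *Slc7a11* had an r of 0.872, and 0.579 within groups. *Slc1a5* ran opposite to *Glul*, with an r of -0.914. These values describe 6 points that share library scaling, the group difference and the samples that stood apart, and no test was made of them.

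**Figure D4:**
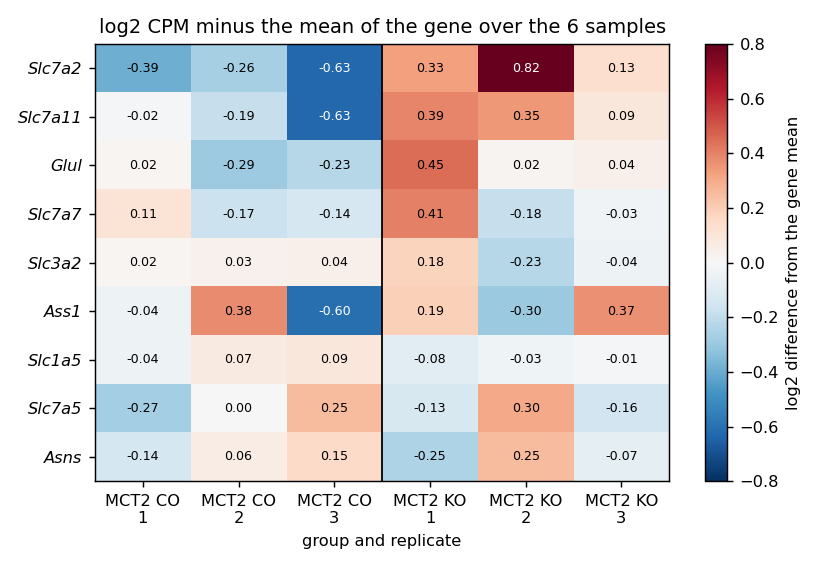
log2 CPM of each of the 9 genes minus its mean over the 6 samples, with genes as rows, samples as columns and the value printed in each cell. Red is above and blue below the gene's mean. *Slc7a2* is above its mean in the 3 KO samples and below it in the 3 CO samples, while *Slc7a5* and *Asns* are highest in CO replicate 3 and KO replicate 2.

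Across 150 tested genes of 8 lists on amino acid transport, metabolism and sensing, the gene whose log2 CPM ran most like *Slc7a2* over the 6 samples was *Lars* (named Lars1 in the count table), the cytosolic leucyl-tRNA synthetase (Pearson r 0.973). For *Slc7a11* it was *Slc38a9*, a lysosomal arginine sensor (r 0.963), and for *Glul* it was *Slc1a1*, a glutamate and cysteine carrier (r 0.965). Each r was picked as the highest of 150 over 6 points that include the group difference. Its size is therefore not evidence of a link between the genes, and no test was made of it. *Slc1a1* had a mean below 1 CPM in both groups, and 66.3% of its exon bases lie inside another gene's span.

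The other genes of these pathways were described in 8 lists. Of 178 listed genes, 150 were tested, 87 were higher and 63 lower in KO, and the median log2 fold change was 0.056. None was called by edgeR's quasi-likelihood test, 19 had an unadjusted p under 0.05 (12 higher, 7 lower), and DESeq2 called 1 of them on all genes and 2 on the filtered genes. All KO samples lay above all CO samples for 17 of them and below for 15, beside the 7.07% and 8.77% of all genes given above.

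Of the other Slc7 and Slc3 genes, 6 of 12 were tested, 2 higher and 4 lower in KO, with a median of -0.15. *Slc7a15* had the highest log2 fold change (0.87, edgeR adjusted p = 0.491, groups overlapping) and *Slc7a3*, a further cationic carrier, the lowest (-0.72, edgeR adjusted p = 0.451). *Slc7a3* was read at 1.94, 1.58 and 2.41 CPM in CO and at 1.13, 1.29 and 1.17 CPM in KO, with all KO samples lower.

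Of the other amino acid transporters, 26 of 37 were tested, 13 higher and 13 lower, with a median of 0.016. *Slc43a2*, which encodes the large neutral amino acid carrier LAT4, was read at 109.4, 88.4 and 76.8 CPM in CO and at 168.3, 130.9 and 123.0 CPM in KO. The groups did not overlap, and the log2 fold change was 0.62 (SE 0.16, edgeR adjusted p = 0.396). DESeq2 called *Slc43a2* (adjusted p = 0.0425), and this call was lost without KO replicate 2 (log2 fold change 0.68, DESeq2 adjusted p = 0.0611), without CO replicate 3 (0.52, DESeq2 adjusted p = 0.442) and without both (0.56, DESeq2 adjusted p = 0.109). Its edgeR log2 fold change stayed between 0.48 and 0.77 as single samples were left out. *Slc36a2*, a proton-coupled carrier of small amino acids, was the highest of the list (1.16, edgeR adjusted p = 0.657) and *Slc1a3*, a glutamate carrier, the lowest (-0.69, edgeR adjusted p = 0.553), both with overlapping groups. *Slc36a2* came to 0.21 without KO replicate 1, 0.70 without CO replicate 3 and 2.13 without CO replicate 1, and *Slc1a3* to -0.29 without CO replicate 3 and KO replicate 2.

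Of the enzymes of glutamine and glutamate, 22 of 25 were tested, 12 higher and 10 lower, with a median of 0.032. *Oplah*, which returns 5-oxoproline to glutamate in the glutathione cycle, was read at 8.57, 9.50 and 9.52 CPM in CO and at 16.1, 13.5 and 11.9 CPM in KO. All KO samples were higher, the log2 fold change was 0.59 (SE 0.14), and the adjusted p was 0.380 by edgeR and 0.0511 by DESeq2. Of the exon bases of *Oplah*, 15.1% lie inside another gene's span. *Gpt*, alanine aminotransferase, was the lowest (-0.32, edgeR adjusted p = 0.548), with all KO samples below all CO samples.

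Of the genes of arginine, urea and polyamine metabolism, 17 of 22 were tested, 10 higher and 7 lower, with a median of 0.068. *Nos2*, the inducible nitric oxide synthase that uses arginine, was read at 1.27, 2.42 and 0.978 CPM in CO and at 3.86, 6.66 and 17.8 CPM in KO. The groups did not overlap, KO replicate 3 was the highest, and the log2 fold change was 2.60 (SE 0.59, edgeR adjusted p = 0.370). DESeq2 gave *Nos2* an adjusted p of 0.0486 on the filtered genes and 0.0501 on all genes, on either side of the threshold, and 0.111 on all genes without KO replicate 2.

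*Arg1*, the arginase that competes for the same arginine, was named after its values were seen. Its levels were 2.44, 1.81 and 2.45 CPM in CO and 3.10, 10.5 and 3.13 CPM in KO, with KO replicate 2 far above the rest. Its log2 fold change was 1.34 (edgeR adjusted p = 0.489) and 0.48 without KO replicate 2. The samples highest for *Nos2* and for *Arg1* within KO were thus different ones, and the log2 ratio of *Arg1* to *Nos2* overlapped between groups (two-sided exact permutation test, p = 0.3). *Odc1*, which starts polyamine synthesis from ornithine, was the lowest of the list (-0.33, edgeR adjusted p = 0.617), and it was -0.066 without CO replicate 3.

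Of the ATF4 amino acid response genes, all 23 were tested, 11 higher and 12 lower, with a median of -0.019. An unadjusted edgeR p under 0.05 was reached by 3 (*Atf4*, *Atf5* and *Cebpb*), all lower in KO, beside 5.6% of all genes. Of the exon bases of *Cebpb*, 60.4% lie inside another gene's span. All KO samples lay below all CO samples for 3 of the 23 and above for 1, beside 8.77% and 7.07% of all genes. *Vldlr* was the highest (0.47, edgeR adjusted p = 0.552) and *Stc2* the lowest (-0.60, edgeR adjusted p = 0.631). Without CO replicate 3 these came to 0.24 for *Vldlr* and -0.15 for *Stc2*. *Atf4* itself, singled out after its values were seen, was read at 433.3, 412.8 and 523.2 CPM in CO and at 345.7, 295.1 and 297.2 CPM in KO. All KO samples were lower, by at least 67.1 CPM, and the log2 fold change was -0.55 (SE 0.12). The adjusted p of *Atf4* was 0.370 by edgeR and 0.0133 by DESeq2, and its size was under the 0.58 needed for a call and came to -0.40 without CO replicate 3 and KO replicate 2. *Slc7a11*, a member with the response element core in its promoter window, had its KO samples above its CO samples, where *Atf4* had them below. *Asns* and *Slc7a7*, which also held the core, overlapped between groups. ATF4 protein was not measured in these RNA data, and its part in these differences was not tested. The log2 ratio of *Slc7a11* to *Asns* differed by 0.60 between groups, with overlap (two-sided exact permutation test, p = 0.2), and that of *Asns* to *Slc7a5* by -0.055 (p = 0.7 in the same permutation test).

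Of the cytosolic tRNA synthetases, all 20 were tested, 16 higher and 4 lower, with a median of 0.080. *Lars* was the highest (0.21, edgeR adjusted p = 0.491), with all KO samples above all CO samples, and *Yars* the lowest (-0.12, edgeR adjusted p = 0.717, and -0.073 without KO replicate 3 or -0.19 without KO replicate 2). Of the genes of amino acid sensing and mTORC1, all 24 were tested, 16 higher and 8 lower, with a median of 0.049. *Nprl3*, a subunit of the GATOR1 complex that restrains mTORC1, was the highest (0.38, edgeR adjusted p = 0.477, 23.4% of exon bases inside another gene's span) and *Sesn3*, a sestrin, the lowest (-0.28, edgeR adjusted p = 0.598). Without CO replicate 3 these came to 0.24 for *Nprl3* and -0.11 for *Sesn3*. *Slc38a9*, counted with the transporters, had a log2 fold change of 0.29 (edgeR adjusted p = 0.508).

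Of the amino acid catabolism genes, 12 of 15 were tested, 7 higher and 5 lower, with a median of 0.14. *Kmo*, which acts on kynurenine from tryptophan, was read at 16.9, 18.9 and 18.1 CPM in CO and at 16.6, 9.30 and 11.3 CPM in KO. All KO samples were lower, and the log2 fold change was -0.54 (edgeR adjusted p = 0.491) and -0.36 without CO replicate 3 and KO replicate 2. *Bcat1*, which starts the breakdown of branched-chain amino acids, had a log2 fold change of 0.44 (edgeR adjusted p = 0.676), 0.080 without KO replicate 2 and 0.71 without KO replicate 1.

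**Figure D5:**
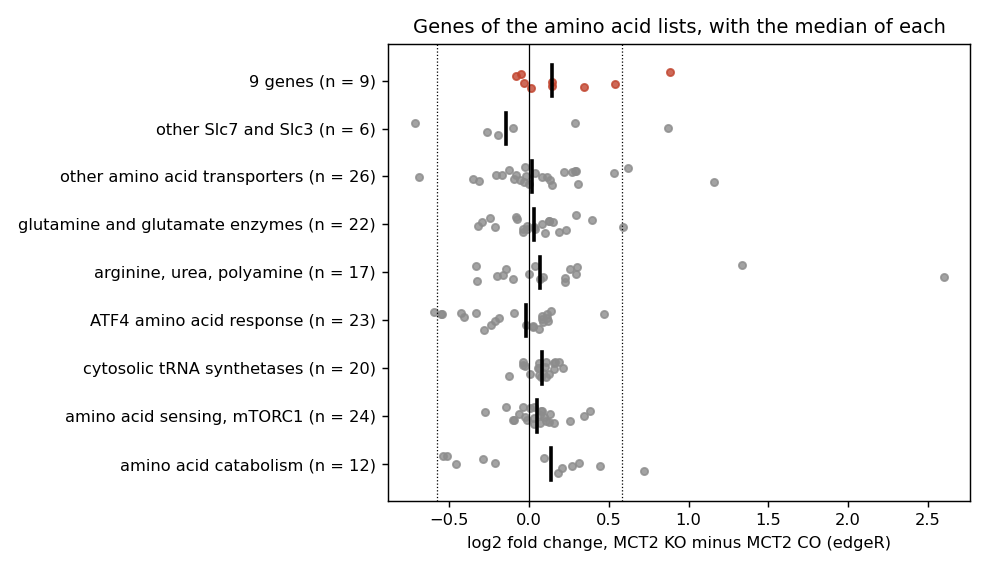
log2 fold change, KO minus CO, of each tested gene (points) in the 9-gene set (red) and the 8 other amino acid lists (grey), with the number of genes tested beside each name. Black bars are medians and dotted lines mark 0.58 in each direction. The medians run from -0.15 for the other Slc7 and Slc3 genes to 0.15 for the 9 genes, with *Nos2* far to the right at 2.60.

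Markers of other cells that a CD11b selection can hold were read beside these results. All 10 macrophage markers were higher in KO, with a median log2 fold change of 0.25, and their summed level was 4809 to 6312 CPM in CO and 4941 to 8807 CPM in KO, overlapping. Of 9 tested neutrophil markers out of 11 listed, 8 were higher in KO, with a median of 1.53 and 6 of them without overlap, and DESeq2 called 5. Their summed level was 111.1 to 127.0 CPM in CO and 116.8 to 209.3 CPM in KO, overlapping, with *Ly6g* at 0 to 0.123 CPM. The KO sum was highest in KO replicate 1, the highest sample for *Glul*, *Slc7a7* and *Slc7a11* as well. In KO replicate 2, the highest sample for *Slc7a2*, the sum was 116.8 CPM. *Csf3r* (41.1 CPM) and *Mmp9* (47.3 CPM) were its largest parts, as they were in every sample of both groups. The overlap of the sums therefore says little about the other neutrophil markers. Most of the 11 listed neutrophil markers lay above every CO sample in KO replicate 2. Among them were *S100a9* at 9.12 CPM against at most 4.18, *Ngp* at 3.62 against at most 0.376 and *Retnlg* at 1.81 against at most 0.489. The others above were *S100a8*, *Mmp8*, *Mmp9*, *Ltf*, *Camp* and *Ly6g*, with *Camp* and *Ly6g* under 1 CPM in that sample. Only *Csf3r*, at 41.1 CPM against at least 70.9, and *Cxcr2*, at 0.553 against at least 0.808, lay below every CO sample.

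Of the 9 fibroblast markers, 8 were lower in KO, 3 of them without overlap, and DESeq2 called 3. The summed level of the 9 was 2078 to 3436 CPM in CO and 1754 to 1853 CPM in KO, without overlap. All 12 genes of a dissociation response were lower in KO, with a median of -0.35, 6 of them without overlap, and DESeq2 called 1. Their sums were 13090 to 15840 CPM in CO and 10910 to 12800 CPM in KO, also without overlap. CO replicate 3 was the highest in both sums and the lowest sample for *Slc7a2*, *Slc7a11* and *Ass1*. Summed B cell markers, most of them *Ighm*, lay at 80.1 to 109.1 CPM in 5 samples and at 23.5 CPM in KO replicate 2. All 7 tested B cell markers were lower in KO, with a median log2 fold change of -1.36, 4 of them without overlap, and DESeq2 called 2. The sums of dendritic cell, T cell, NK cell, endothelial and erythroid markers also overlapped between groups. KO replicate 2 was again the lowest for T cell markers, at 14.21 CPM beside 44.59 to 90.38 in the other samples. It was also the lowest for dendritic cell markers (29.31 beside 47.16 to 68.17) and endothelial markers (82.76 beside 94.23 to 136.7). For NK cell (50.62) and erythroid markers (1.07) it was not the lowest. Of 8 markers of epithelial and TC1 cells, 2 passed the filter, and *Nkx2-1* was at 0 counts in all samples. The sum was 14.1 to 33.7 CPM, most of it *Cdh1* (13.2 to 32.0 CPM). The part of these cells and responses in the differences of the 9 genes was not tested.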

How the data were processed

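Poly-A RNA of CD11b+ cells from 3 MCT2 CO and 3 MCT2 KO samples was sequenced from stranded libraries. Per the labels' processing notes the tools were FastQC 0.12.0, MultiQC 1.28, STAR 2.7.11b, featureCounts 2.1.1 and DESeq2 1.18.1, on GRCm38. The authors deposited raw counts per gene without normalization or pooling. The annotation, the feature type and the strand setting used for counting are not given in the sources used here. The length column matched the whole gene span of GENCODE M21 for 98.1% of the 25594 shared identifiers, but only 2.22% of starts matched, so positions and exon lengths were taken from GENCODE M21. How reads of overlapping genes were assigned is not given, and such reads may have been left out. *Aldh4a1* and *Asnsd1*, with 100% and 97.6% of exon bases inside another gene's span, had 0 counts in all 6 samples.

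From these counts, edgeR 4.0.16 (R 4.3.3) was run with filterByExpr (minimum count 10, minimum total 15), TMM and the quasi-likelihood test, adjusted by Benjamini-Hochberg over 13485 genes. Intervals came from limma-voom (limma 3.58.1), and DESeq2 1.42.0 was the alternative test. Exact permutation tests served single values, and 1 further count ratio is not reported here. On simulated counts for 13397 genes, edgeR recovered 97.9% of 97 genes changed by 1 log2 unit, with 6.60% of calls false. DESeq2 recovered 100% of them, with 13.4% of calls false. The simulated counts followed the fitted dispersions and held no samples that stood apart. These shares are therefore not the power on the real counts, where edgeR called none. Total counts were 24863611 to 31713704 per sample.

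The genes and lists were chosen with earlier results of these data known. The text names the 9 members, *Slc16a7*, list genes called by either tool, the highest and lowest gene of each list with a mean of at least 1 CPM, and the list gene most like each of the 3 members with the largest change. Alternatives were other normalizations and filters, DESeq2, a replicate block and leaving out samples. Leaving out MCT2 CO replicate 3 or MCT2 KO replicate 2 under DESeq2 was added after seeing the data.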

Additional observations from a re-analysis of the deposited data

How the results depend on the processing

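The edgeR count over all genes was 0 with 6 samples, 0 to 2 as single samples were left out (2 without MCT2 KO replicate 2), 2 with no filter on low counts, and 10 without MCT2 CO replicate 3 and MCT2 KO replicate 2 together. DESeq2 called 79 filtered genes and 83 of all genes, and with all genes 69 without KO replicate 2, 35 without CO replicate 3 and 41 without both. Members called were 0 by edgeR in every run and 1 by DESeq2 on the filtered and on all genes, and 0 by DESeq2 in the runs without those samples. Genes called in the other lists were 0 by edgeR, 2 by DESeq2 on the filtered genes and 1 on all genes. The members' median log2 fold change ranged from 0.094 to 0.27 over the runs. Members without overlap numbered 3, or 4 without CO replicate 1 or without KO replicate 1. *Slc7a5* had a log2 fold change of -0.0034 with library size only and -0.015 without CO replicate 3 and KO replicate 2 together, and *Slc3a2* one of 0.047 there. With single samples left out the range was -0.15 to 0.15 for *Slc7a5*, -0.15 to 0.043 for *Slc3a2*, -0.034 to 0.27 for *Slc7a7*, -0.18 to 0.086 for *Asns* and -0.072 to 0.41 for *Ass1*. Under DESeq2, *Slc7a5* was -0.14 without KO replicate 2 and -0.012 without both samples, *Slc3a2* 0.050 in either run (0.0501 and 0.0499), and without CO replicate 3 *Asns* was 0.043 and *Ass1* -0.064. The cause of these differences was not tested. Same-numbered samples deviated together with r of 0.216, -0.247 and -0.161, so the numbers were not taken as pairs, samples did not each correlate best with their own number, and the fit with a replicate block called 0 genes and 0 members, with a *Slc7a2* log2 fold change of 0.86 (edgeR adjusted p = 0.348).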
